A study of Mus musculus with 12 samples.

Results

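The cytosolic ribosomal protein genes code for the protein part of the ribosomes that translate messenger RNA in the cytosol. Members were taken by gene symbol (Rpl or Rps followed by a number, plus Rplp0, Rplp1, Rplp2, Rpsa and Fau), without the Rps6k kinases and without symbols of numbered pseudogenes. The rule found 87 of the 25208 genes in the deposited table. Of these, 78 are the canonical genes, with 43 for the large subunit, 32 for the small subunit and 3 for the stalk, and 9 are paralogs or copies (Rpl22l1, Rps27l, Rpl7l1, Rpl3l, Rpl6l, Rpl32l, Rps12l1, Rps3a2 and Rps3a3). RefSeq annotates 83 of the 87 as protein coding and 4 (Rpl6l, Rps12l1, Rps3a2 and Rps3a3) as pseudogenes.

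RNA was sequenced from mouse mpkCCDc11 cells, a clonal immortalised line from the cortical collecting duct of the kidney, grown as a polarised layer on permeable supports. The 4 groups of 3 libraries each were Ctnnb1 siRNA with dDAVP, Ctnnb1 siRNA with vehicle, control siRNA with dDAVP, and control siRNA with vehicle. The labels give the genotype as Ctnnb1 knockdown for the Ctnnb1-siRNA groups and as WT for the control-siRNA groups. Ctnnb1 codes for beta-catenin, and dDAVP (desmopressin) is a selective agonist of the vasopressin V2 receptor. All cells were transfected with an siRNA, cultured for 4 days and deprived of serum and hormones for 24 h, and dDAVP (1 nM) was then given for 24 h on the basolateral side. Nothing in the labels tells whether replicates came from different cultures, and p-values may therefore measure technical spread alone.

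Each ribosome carries 1 copy of nearly every ribosomal protein, and cells make the proteins in matched amounts. Their messenger RNAs are short and abundant, and most begin with a 5′ terminal oligopyrimidine (TOP) tract, a C followed by a run of C and T bases, through which Larp1 and mTORC1 control their translation and stability. A few of the proteins also act outside the ribosome, such as Rpl5 and Rpl11, which bind Mdm2 and so act on p53.

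The pyrimidine tracts are shown because they are the sequence feature these genes are known to share and the membership rule did not use it. RefSeq start sites on GRCm38.p6 were at hand for 63 of the 87 genes. A run of at least 8 C or T bases on the transcribed strand, from 20 bases before to 40 bases after the annotated start, was present in 45 of the 63 (71.4%), against 6671 of 27025 genes with a start site (24.7%) and 24.1% of the tested genes that are not members. On the other strand such a run was found in 12.7% of the ribosomal protein genes and 28.5% of all genes. A C followed by at least 4 C or T bases exactly at the annotated start was found in 15 of the 63 (23.8%), against 3.01% of all genes. The windows that follow hold 15 bases before the annotated start and 15 bases from it, read along the transcribed strand, with every run of at least 8 C or T bases in capitals.
Rps6 (chr4:86857353-86857382, minus strand): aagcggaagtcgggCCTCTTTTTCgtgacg
Rpl35 (chr2:39005117-39005146, minus strand): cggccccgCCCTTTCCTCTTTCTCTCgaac
Fau (chr19:6057932-6057961, plus strand): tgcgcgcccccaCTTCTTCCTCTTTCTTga
Rps18 (chr17:33955651-33955680, minus strand): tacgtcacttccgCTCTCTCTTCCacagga
Rpl15 (chr14:18270972-18271001, minus strand): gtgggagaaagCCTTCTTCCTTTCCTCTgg
Rps26 (chr10:128626492-128626521, minus strand): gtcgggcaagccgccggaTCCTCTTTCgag
Rpl22l1 (chr3:28805493-28805522, plus strand): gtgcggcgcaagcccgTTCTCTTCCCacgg
Rps16 (chr7:28350674-28350703, plus strand): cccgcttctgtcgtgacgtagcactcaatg
In the Rps6, Fau, Rps18 and Rpl15 windows the run spans the annotated start. In the Rps26 window it begins a few bases after it, and the paralog Rpl22l1 carries a run of the same kind. The Rps16 window holds no run of this length. Genes with and without a run in the longer window had similar median fold changes in the comparisons described later: for Ctnnb1 siRNA against control siRNA under dDAVP, the median log2 fold change was 0.16 over the 44 tested members with a run and 0.18 over the 18 without.

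Libraries held 32997720 to 48935473 reads in the deposited counts, and 16508 genes passed the filter on low counts, 86 of the 87 members among them. The one that did not was Rpl3l, the striated-muscle paralog of Rpl3, with 8 reads in control-siRNA dDAVP replicate 1 and 0 in the other libraries. Ctnnb1 averaged 334 ± 8.08 CPM (counts scaled to a common library size, with the trimmed mean of M values, TMM) in Ctnnb1 siRNA with dDAVP and 316 ± 14.9 CPM in Ctnnb1 siRNA with vehicle, against 791 ± 18.2 CPM in control siRNA with dDAVP and 757 ± 11.5 CPM in control siRNA with vehicle (SD, n = 3 each). Of 7 collecting duct markers in the table, 6 averaged over 1 TPM (reads divided by transcript length and scaled to a common total). Elf5 averaged 0.0125 TPM. All 7 together summed to 4170 to 4649 TPM per library. Most of this came from Krt18 (1710 TPM on average), Krt8 (1177), Cdh16 (693) and Epcam (506), with Cldn4 at 279 and Gata3 at 31.4. Markers of proximal tubule (3 of 4 in the table), leukocytes, fibroblasts and endothelium (2 of 4 each) summed to at most 13.3, 8.13, 0.74 and 0.31 TPM. Most of the first 2 sums came from Lrp2 (10.4 TPM on average) and Cd68 (5.27 TPM). Ctnnb1-siRNA dDAVP replicate 3 had the highest share of mitochondrial ribosomal RNA, 1.52% of reads against 0.464 to 1.27% in the other libraries.

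The canonical genes averaged from 131 TPM (Rps15a) to 4956 TPM (Rpl41) over the 12 libraries. Per transcript length, the highest was Rpl41, which codes for the smallest ribosomal protein, at 4956 TPM on average (range 4545 to 5277 over 12 libraries). It was followed by Rps29 at 3382 TPM (range 3028 to 3709), Rps12 at 3358 TPM (range 3049 to 3788), Rps3a1 at 3184 TPM (range 3023 to 3636) and Rps27 at 3053 TPM (range 2753 to 3263). The ranges of these 4 overlap, while the range of Rpl41 lies above all of them. Because the genes were read in the same libraries, overlapping ranges do not settle their order. Rps12 lay above Rps27 in every library, whereas the order of Rps29 and Rps12 changed between libraries. The order was not tested. Together the members took 11.9 to 13.1% of TPM in a library.

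The lowest canonical genes on this scale were Rps15a at 131 TPM (range 121 to 138), Rpl22 at 232 TPM (range 219 to 254) and Rps20 at 276 TPM (range 255 to 295), and the 3 ranges do not overlap. These 3 also had the most reads per unit of TPM among the canonical genes. The value was 6.97 times the canonical median for Rps15a, 3.0 times for Rpl22 and 4.68 times for Rps20. The deposited TPM thus divides their reads by longer transcripts than the canonical median. Rpl15, at 2.58 times that median, was not far below Rpl22. Rps16 followed at 528 TPM, with a range of 226 to 745 TPM.

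**Figure D1:**
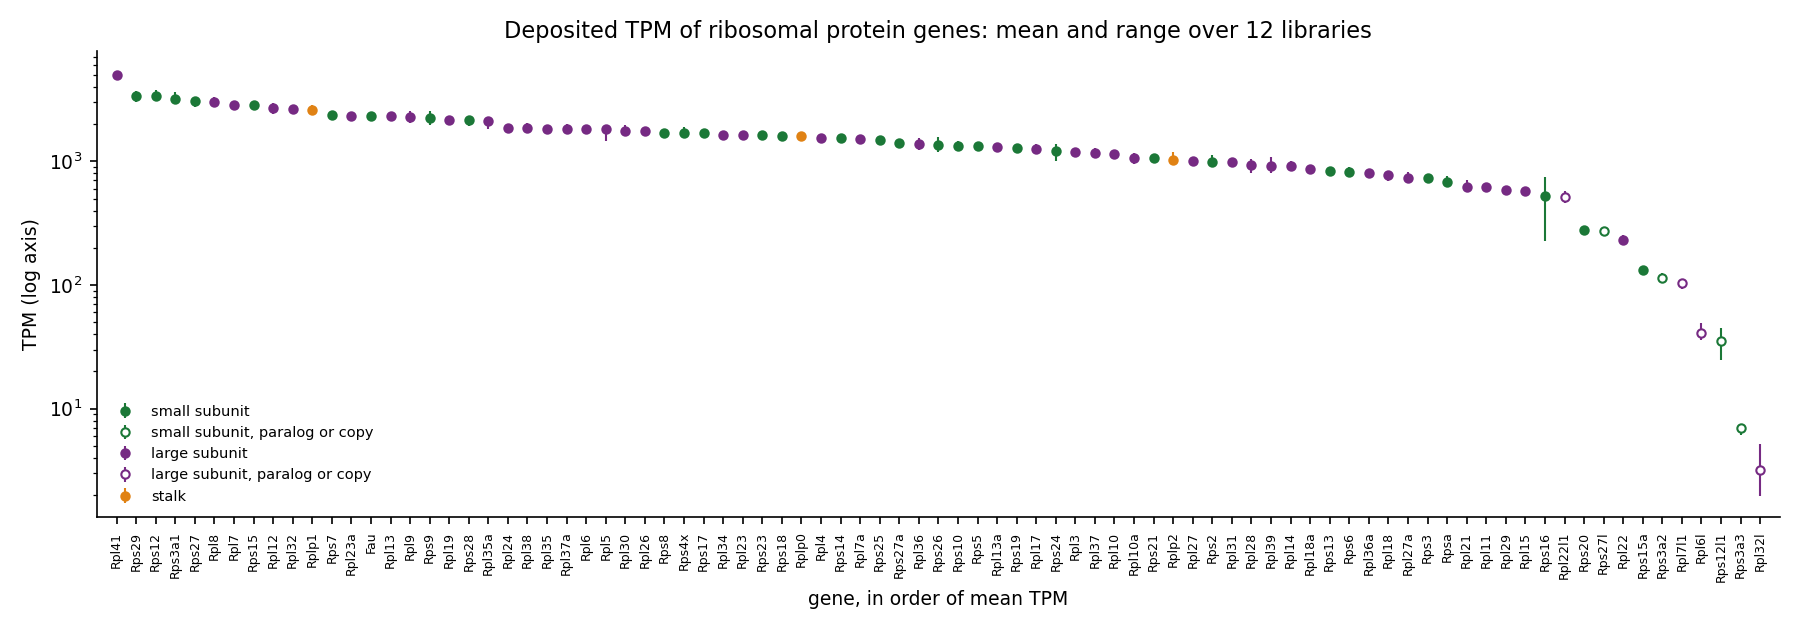
Deposited TPM (log axis) of 85 ribosomal protein genes in order of their mean; points are means and lines the range over 12 libraries, filled for canonical genes and open for paralogs and copies. All canonical genes but 3 average at least 528 TPM, Rps15a, Rpl22 and Rps20 lie lower, and Rps16 has the longest line among the canonical genes; Rpl3l, with reads in 1 library, is left out.

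Ribosomal protein genes took 5.02 ± 0.282% of reads in Ctnnb1 siRNA with dDAVP, 4.77 ± 0.0752% in Ctnnb1 siRNA with vehicle, 4.53 ± 0.269% in control siRNA with dDAVP and 4.68 ± 0.252% in control siRNA with vehicle (SD, n = 3 each). By library the shares were 5.02, 5.30 and 4.74% in Ctnnb1 siRNA with dDAVP and 4.70, 4.75 and 4.85% in Ctnnb1 siRNA with vehicle. They were 4.32, 4.83 and 4.45% in control siRNA with dDAVP and 4.97, 4.60 and 4.48% in control siRNA with vehicle. Replicate 2 of Ctnnb1 siRNA with dDAVP was the highest and replicate 1 of control siRNA with dDAVP the lowest, and the libraries of any pair of groups overlapped. In bulk RNA a higher share of a gene family cannot be told apart from less RNA of everything else, per cell or over fewer cells of a kind.

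Small structural RNAs, 146 genes in the table, were taken by symbol. The symbols searched were those of 7SK, signal recognition particle, small nuclear and nucleolar, Y, vault, telomerase, RNase P, MRP and 5S ribosomal RNAs. Small structural RNAs took 2.51, 3.09 and 1.62% of reads in Ctnnb1 siRNA with dDAVP and 2.16, 2.31 and 2.13% in Ctnnb1 siRNA with vehicle. Their shares were 1.69, 2.52 and 2.07% in control siRNA with dDAVP, and 1.96, 1.52 and 1.33% in control siRNA with vehicle. In 3 of the 4 groups, all but Ctnnb1 siRNA with vehicle, the libraries stood in the same order by their share of small structural RNA as by their share of ribosomal protein reads. With small structural RNA taken out of the total, the ribosomal protein share was 5.15, 5.47 and 4.81% in Ctnnb1 siRNA with dDAVP, 4.80, 4.87 and 4.95% in Ctnnb1 siRNA with vehicle, 4.39, 4.96 and 4.54% in control siRNA with dDAVP, and 5.07, 4.67 and 4.54% in control siRNA with vehicle, and the order of libraries inside each group was kept. With those genes left out of the counts before the fit, the members' median log2 fold changes in the comparisons that follow stayed at the same values to 2 digits by edgeR (0.16, 0.11, 0.031, -0.028 and 0.13). TMM scaling was computed again from the other genes, so the medians could move little in any case. The unchanged values are therefore no separate check on the small structural RNA genes. On log2(TPM + 1), taking those genes out of the TPM total moved the medians: to 0.10 in place of 0.084 for Ctnnb1 siRNA under dDAVP, to 0.059 in place of 0.045 for dDAVP under Ctnnb1 siRNA, and to 0.010 in place of -0.044 for Ctnnb1 siRNA with vehicle. It was -0.033 in place of -0.080 for dDAVP under control siRNA and 0.086 in place of 0.12 for the interaction.

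**Figure D2:**
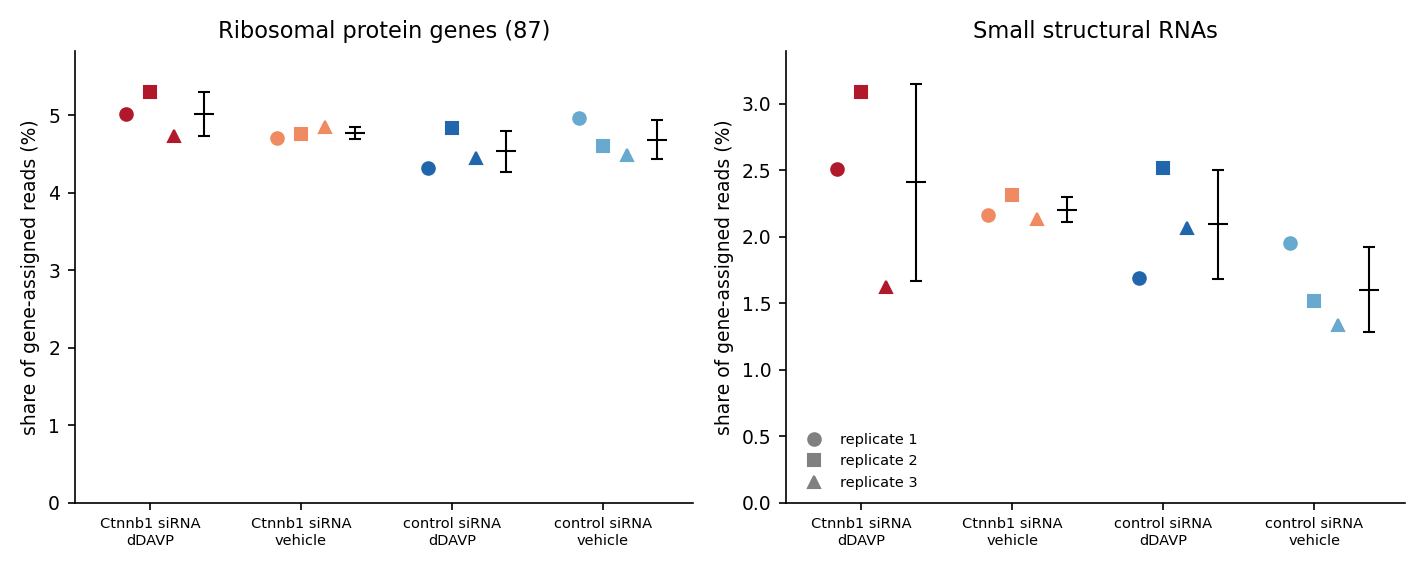
Share of gene-assigned reads (%) in ribosomal protein genes (left) and in small structural RNAs (right) for each library; marker shapes give the replicate number, and bars the mean and SD of 3 libraries. Ribosomal protein shares run from 4.32 to 5.30% and overlap between groups, and replicate 2 of Ctnnb1 siRNA with dDAVP is highest in both panels.

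Under dDAVP, Ctnnb1 siRNA was set against control siRNA to ask how beta-catenin knockdown bears on these genes in the presence of the hormone agonist. No single ribosomal protein gene passed edgeR's quasi-likelihood test at an adjusted p (Benjamini-Hochberg over 16508 genes) under 0.05, where 0.121% of all tested genes were called higher and 0.145% lower, but the family lay to one side. The fold change was positive for 84 of 86 members, against 50.4% of all tested genes, and for all 78 canonical genes by edgeR, of which 5 turned negative on log2(TPM + 1). Among them were Rpl10a (-0.064), Rpl5 (-0.051), Rpl29 (-0.031) and Rpl7a (-0.027). The median log2 fold change was 0.16 (1.12-fold) over the members and 0.0011 over all tested genes, and on log2(TPM + 1) the members' median was 0.084. At an unadjusted p under 0.05, 59 of the 86 were higher, against 6.13% of all tested genes, and none was lower, against 5.53%. All 3 Ctnnb1-siRNA libraries lay above all 3 control-siRNA libraries for 38 of the 86 (44.2%), against 7.26% of all tested genes, and DESeq2 called 16 members higher, against 1.16% of all genes it tested. The members share libraries and vary together, as described later, so these counts do not represent as many separate results.

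The largest fold change in that comparison, apart from low-count copies, was that of Rpl9, a large-subunit protein. Rpl9 had 893, 948 and 926 CPM in Ctnnb1 siRNA with dDAVP, against 713, 836 and 731 CPM in control siRNA with dDAVP. The groups did not overlap, with a log2 fold change of 0.28 (SE 0.061) and an adjusted p of 0.0748 by edgeR. Leaving out control-siRNA dDAVP replicate 2, the highest of the lower group, widened the log2 fold change to 0.35. The adjusted p by edgeR was then 0.0144, and 2 members were called higher, against 0.172% of all genes tested in that fit. Without Ctnnb1-siRNA dDAVP replicate 3, 4 members were called higher, against 0.618% of all genes tested, and DESeq2 gave Rpl9 an adjusted p of 0.00193. Over all alternatives the log2 fold change of Rpl9 ran from 0.20 to 0.35. Its adjusted p, by edgeR, DESeq2 or limma, ran from 0.00193 to 0.406. Rpl12, a large-subunit protein at the base of the stalk, followed at a log2 fold change of 0.28 (SE 0.076, adjusted p = 0.163 by edgeR), and Rpl39, which lines the peptide exit tunnel, at 0.28 (adjusted p = 0.0962 by edgeR). The smallest positive change of a canonical gene was that of Rpl29, at a log2 fold change of 0.053.

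**Figure D3:**
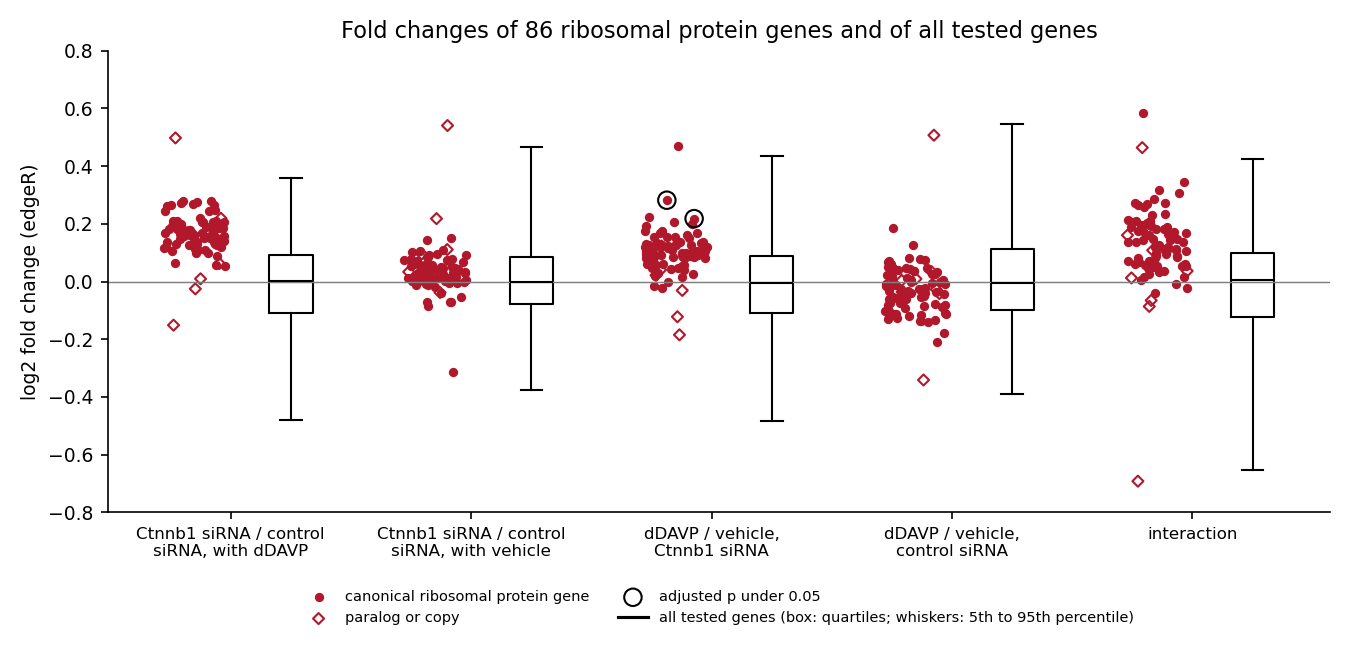
Log2 fold changes (edgeR) of 86 ribosomal protein genes, drawn as filled points for canonical genes and open diamonds for paralogs and copies, beside boxes of all 16508 tested genes, for 4 pairs of groups and the interaction. Every canonical gene is above 0 for Ctnnb1 siRNA against control siRNA with dDAVP by edgeR (5 of 78 turned negative on log2(TPM + 1)), and the 2 circled genes, Rps26 and Rps2, are those with an adjusted p under 0.05.

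Within Ctnnb1 siRNA, dDAVP was set against vehicle to ask how the agonist bears on these genes when beta-catenin is low. Both Rps26 and Rps2, which code for small-subunit proteins near the messenger RNA channel, rose with dDAVP by edgeR, and no member fell. These 2 of 86 members (2.33%) compare with 2.08% of all tested genes called higher, a share near the background, and 0.697% called lower. The fold change was positive for 80 of 86 members, against 48.5% of all tested genes, with a median log2 fold change of 0.11 (1.08-fold) over the members and -0.0049 over all tested genes, and on log2(TPM + 1) the members' median was 0.045. At an unadjusted p under 0.05, 20 members were higher, against 7.74% of all tested genes, and none was lower, against 5.91%. The lowest values at 1 CPM or more were those of Rpl6l (log2 fold change -0.12), Rps3a3 (-0.031) and Rpl37a (-0.021). The dDAVP libraries lay above the vehicle libraries for 35 members (40.7%), against 9.54% of all tested genes. Without Ctnnb1-siRNA dDAVP replicate 2, the library with the highest ribosomal protein share, the members' median was 0.064 and no member was called.

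Rps26 had 335, 348 and 354 CPM in Ctnnb1 siRNA with dDAVP, against 268, 283 and 303 CPM in Ctnnb1 siRNA with vehicle, and 295, 337 and 309 CPM in control siRNA with dDAVP, against 312, 308 and 276 CPM in control siRNA with vehicle. The dDAVP libraries were higher without overlap under Ctnnb1 siRNA and overlapped with vehicle under control siRNA. The log2 fold change under Ctnnb1 siRNA was 0.28 (SE 0.064, adjusted p = 0.0243 by edgeR), higher in 3 of 3 libraries. The adjusted p was 0.0625 once the second dDAVP library of Ctnnb1 siRNA was left out, and 0.141 and 0.114 once vehicle replicate 1 or 2 of that siRNA was. Under control siRNA the log2 fold change was 0.069 (adjusted p = 0.688 by edgeR), and the interaction, the difference between the 2 responses, was 0.21 (adjusted p = 0.918 by edgeR).

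Rps2 had 543, 583 and 557 CPM in Ctnnb1 siRNA with dDAVP, against 497, 462 and 488 CPM in Ctnnb1 siRNA with vehicle. It had 508, 548 and 516 CPM in control siRNA with dDAVP, against 485, 453 and 445 CPM in control siRNA with vehicle. The dDAVP libraries were the higher ones without overlap under both siRNAs. The log2 fold change was 0.22 (SE 0.052, adjusted p = 0.0341 by edgeR) under Ctnnb1 siRNA and 0.19 (SE 0.052, adjusted p = 0.0764 by edgeR) under control siRNA, and the interaction was 0.033 (adjusted p = 0.969 by edgeR). The call under Ctnnb1 siRNA was lost when that siRNA's vehicle replicate 1 (adjusted p = 0.0712), 2 (0.205) or 3 (0.0897) or its dDAVP replicate 2 (0.111) was left out. It was also lost without control-siRNA vehicle replicate 2 (0.0597) or 3 (0.0525) and without control-siRNA dDAVP replicate 3 (0.0583). Under control siRNA, DESeq2 gave Rps2 an adjusted p of 0.00541, and edgeR gave 0.0377 without Ctnnb1-siRNA dDAVP replicate 3. Over all alternatives by edgeR, DESeq2 or limma, the adjusted p of Rps2 under control siRNA ran from 0.00541 to 0.283.

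Both genes have rows of numbered pseudogenes in the table, 10 for Rps2 and 1 for Rps26, and how reads were split between gene and copy is uncertain. Rows of numbered Rps2 pseudogenes held 80.3 reads, and the single Rps26 pseudogene row 36.8 reads, for each 100 reads of the gene itself. With those reads added to the gene, an alternative chosen after seeing the data, the adjusted p by edgeR was 0.0145 for Rps2 and 0.0597 for Rps26 under Ctnnb1 siRNA, and 0.0304 for Rps2 under control siRNA. The highest such ratio was that of Rpsa, the laminin-receptor homologue of the small subunit, with 83.6 pseudogene reads for each 100 of its own. Rpl3 had 45.8 and Rps18 44.7. Pseudogene rows together took 0.243, 0.25 and 0.228% of reads in Ctnnb1 siRNA with dDAVP, against 0.228, 0.223 and 0.227% in Ctnnb1 siRNA with vehicle. The most abundant Rps2 row, Rps2-ps10, had 12661, 13280 and 15038 reads in Ctnnb1 siRNA with dDAVP, against 10114, 9779 and 10786 reads in Ctnnb1 siRNA with vehicle. These reads are not scaled to library size. The dDAVP libraries held 46142225, 44496779 and 48762950 reads in total, against 40210205, 44102656 and 43053427 in the vehicle libraries. The median log2 fold change over all 116 tested pseudogene rows, most of them low in reads, was -0.029 in that comparison.

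Within control siRNA, dDAVP was set against vehicle to ask how the agonist bears on these genes with beta-catenin at its usual level. The members lay slightly to the lower side, with no gene passing the test by edgeR: 30 of 86 fold changes were positive, against 48.7% of all tested genes, and the median log2 fold change was -0.028, against -0.0042. None was called in either direction, against 1.91% of all tested genes called higher and 0.915% called lower. At an unadjusted p under 0.05, 1 member was higher and 5 lower, against 7.37% and 7.24% of all tested genes. Rps2 alone was higher without overlap (10.2% of all tested genes were), and Rplp2 and Rps9 were lower without overlap (12% were). The median changed sign when 1 library was left out, to 0.0093 without control-siRNA dDAVP replicate 1 and to 0.017 without control-siRNA vehicle replicate 1. It was -0.073 without control-siRNA dDAVP replicate 2, -0.006 without control-siRNA dDAVP replicate 3 and -0.049 without control-siRNA vehicle replicate 3. On log2(TPM + 1) the members' median was -0.080 and limma called 7 of them lower, against 1.4% of all tested genes, and with small structural RNA taken out of the TPM total it called none lower and Rps2 higher.

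The lowest canonical values with dDAVP under control siRNA were those of Rplp2 (log2 fold change -0.21, SE 0.077, adjusted p = 0.200 by edgeR) and Rpl39 (-0.18, SE 0.065, adjusted p = 0.194 by edgeR). Rplp2 was 204, 236 and 216 CPM in control siRNA with dDAVP, against 277, 244 and 238 CPM in control siRNA with vehicle, which do not overlap. Rpl39 was 184, 195 and 174 CPM in control siRNA with dDAVP, against 225, 210 and 192 CPM in control siRNA with vehicle, which overlap.

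With vehicle, Ctnnb1 siRNA was set against control siRNA to ask how the knockdown bears on these genes without the agonist. No member passed the test by edgeR or DESeq2, none had an unadjusted p under 0.05 (4.17% of all tested genes were higher at that level and 3.92% lower), and 6 of 86 (6.98%) were higher without overlap, against 8.95% of all tested genes. In edgeR, 0.206% of all tested genes were called higher and 0.224% lower. The fold change was positive for 70 of 86, against 49% of all tested genes, with a median log2 fold change of 0.031 against -0.0029. The members' median was 0.087 without control-siRNA vehicle replicate 1, 0.0066 without control-siRNA vehicle replicate 3, and 0.049 or 0.014 when the first or the third vehicle library of Ctnnb1 siRNA was left out. On log2(TPM + 1) it was -0.044, and 0.010 on that scale with small structural RNA taken out of the total, so its direction depended on the scale and on the total. The highest values at 1 CPM or more were those of Rps3a3 (log2 fold change 0.22), Rplp1 (0.15) and Rpl10a (0.14), and the lowest those of Rps16 (-0.31), Rps29 (-0.084) and Rps26 (-0.072).

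The interaction asks whether the dDAVP response differed between the siRNAs. No gene of the whole table passed it by edgeR, members included, and DESeq2 called 0 members. The estimate was positive for 80 of 86 members, against 51.1% of all tested genes, with a median of 0.13 over the members and 0.0040 over all tested genes, and 22 members had an unadjusted p under 0.05 on the higher side, against 2.66% of all tested genes, and none on the lower side, against 2.36%. The median was 0.080 without Ctnnb1-siRNA dDAVP replicate 2 and 0.081 without control-siRNA vehicle replicate 1. The smallest p among the members was that of Rpl39, at an estimate of 0.35 (SE 0.091, unadjusted p = 0.00178, adjusted p = 0.918 by edgeR). It had 212, 223 and 236 CPM in Ctnnb1 siRNA with dDAVP and 189, 202 and 207 CPM in Ctnnb1 siRNA with vehicle, against the control-siRNA values above. The 4 pairs of groups share libraries, so their fold changes are not independent of each other: a high value in Ctnnb1 siRNA with dDAVP enters 2 of them and the interaction.

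The subunits are given side by side. Under dDAVP, the median log2 fold change for Ctnnb1 siRNA against control siRNA was 0.18 over the 32 canonical small-subunit genes, 0.16 over the 43 large-subunit genes and 0.16 over the 3 stalk genes. For dDAVP against vehicle the medians under Ctnnb1 siRNA were 0.11, 0.11 and 0.11, with all 32 small-subunit and 41 of 43 large-subunit genes positive, and under control siRNA they were -0.054, -0.016 and -0.0079. With vehicle, Ctnnb1 siRNA against control siRNA gave 0.018, 0.046 and 0.031, and the interaction gave 0.17, 0.11 and 0.16. No test of one subunit against the other was made.

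Among small-subunit members, Rps6, the protein phosphorylated by S6 kinase downstream of mTORC1, had 622, 671 and 631 CPM in Ctnnb1 siRNA with dDAVP and 559, 570 and 591 CPM in Ctnnb1 siRNA with vehicle. It had 541, 595 and 545 CPM in control siRNA with dDAVP and 582, 528 and 530 CPM in control siRNA with vehicle. The libraries of Ctnnb1 siRNA with dDAVP lay above those of the other groups, at a log2 fold change of 0.16 against Ctnnb1 siRNA with vehicle (adjusted p = 0.164 by edgeR) and 0.20 against control siRNA with dDAVP (adjusted p = 0.176 by edgeR). Rpsa had the next highest fold change for dDAVP under Ctnnb1 siRNA after Rps16 and Rps26, at a log2 value of 0.22 (SE 0.071, adjusted p = 0.133 by edgeR), and 800 CPM in its highest library, Ctnnb1-siRNA dDAVP replicate 2. Rps27a and Fau, whose proteins are made as fusions to ubiquitin and a ubiquitin-like protein, had log2 values of 0.10 and 0.041 there, and the X-linked Rps4x had 0.11.

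Rps16 was the most variable member (chr7:28350689-28352698 on GRCm38.p6; a small-subunit protein whose tail reaches the decoding site). It had 186, 160 and 229 CPM in Ctnnb1 siRNA with dDAVP and 70.3, 170 and 175 CPM in Ctnnb1 siRNA with vehicle. It had 139, 197 and 140 CPM in control siRNA with dDAVP and 160, 189 and 167 CPM in control siRNA with vehicle. A single library, Ctnnb1-siRNA vehicle replicate 1, lay far below the other 11, with 2869 reads against 5476 to 10859. The one Rps16 pseudogene row, Rps16-ps2, was lowest in the same library, at 177 reads in that library against 320 to 792 in the others. Its within-group SD was 0.43 on the log2 scale, against a median of 0.086 over the members. The log2 value for Ctnnb1 siRNA against control siRNA with vehicle was -0.31 (adjusted p = 0.910 by edgeR), and 0.0069 without that library. For dDAVP under Ctnnb1 siRNA it was 0.47 (adjusted p = 0.615 by edgeR), 0.15 without that library and 0.32 without Ctnnb1-siRNA dDAVP replicate 3. Ctnnb1-siRNA vehicle replicate 1 also held the highest share of cytosolic ribosomal RNA, 0.0452% of reads. The next highest share, 0.0413%, was that of control-siRNA vehicle replicate 2, where Rps16 had 189 CPM. The part of this share in the Rps16 value was not tested.

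**Figure D4:**
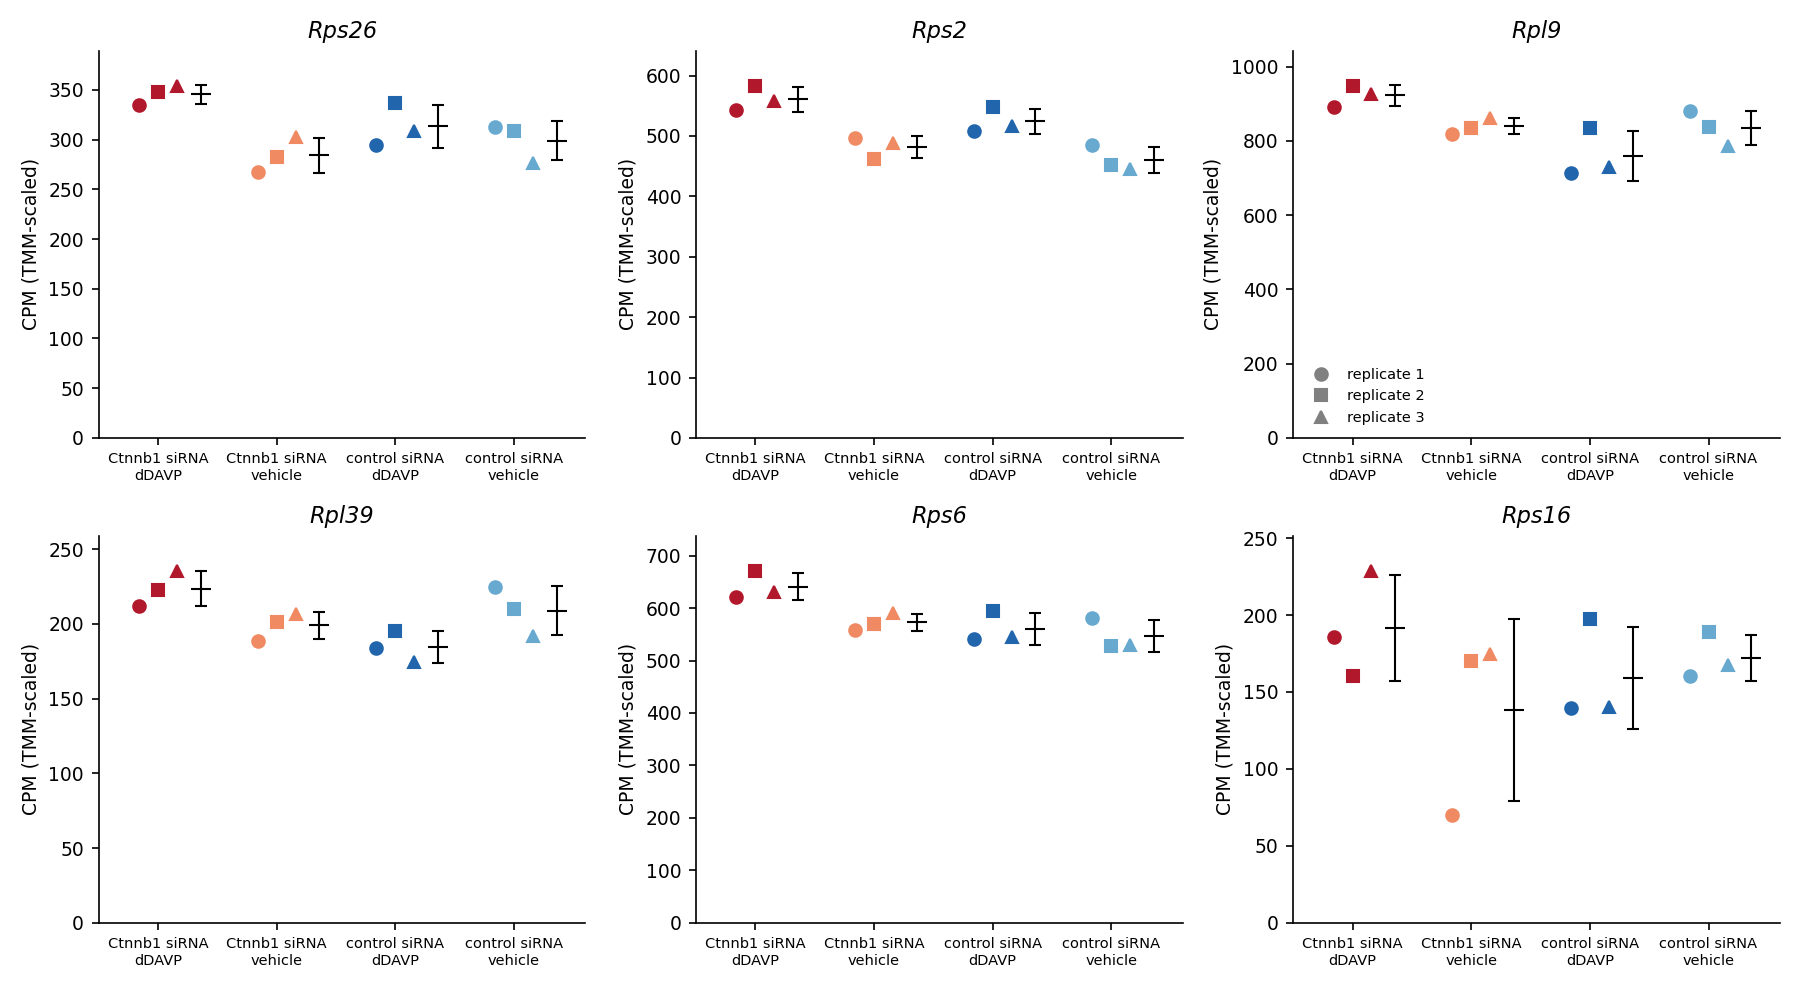
CPM (TMM-scaled) per library of 6 ribosomal protein genes; marker shapes give the replicate number, and bars the mean and SD of 3 libraries. Rps26 and Rps2 are higher with dDAVP than with vehicle under Ctnnb1 siRNA, Rpl9 and Rpl39 are higher in Ctnnb1 siRNA than in control siRNA with dDAVP, and Rps16 has 1 library at 70.3 CPM.

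Among large-subunit members, Rpl5 and Rpl11, which with 5S ribosomal RNA form the particle that binds Mdm2, did not pass the test by edgeR in any comparison. Rpl5 had 1377, 1440 and 1334 CPM in Ctnnb1 siRNA with dDAVP and 1290, 1348 and 1378 CPM in Ctnnb1 siRNA with vehicle, which overlap. It had 1166, 1297 and 1254 CPM in control siRNA with dDAVP, below all Ctnnb1-siRNA dDAVP libraries, and 1326, 1247 and 1231 CPM in control siRNA with vehicle. The log2 value of Rpl5 for Ctnnb1 siRNA under dDAVP was 0.16 by edgeR and -0.051 on log2(TPM + 1). Its TPM was 1455, 1834 and 1913 in Ctnnb1 siRNA with dDAVP, against 1762, 1772 and 1817 in control siRNA with dDAVP. The negative value thus rested on the TPM of Ctnnb1-siRNA dDAVP replicate 1. Reads of Rpl5 there were 62939, close to the 63004 and 63326 of replicates 2 and 3. Rpl11 had log2 fold changes of 0.13 for dDAVP under Ctnnb1 siRNA and 0.15 for Ctnnb1 siRNA under dDAVP (adjusted p = 0.326 and 0.313 by edgeR). Rpl13a, which in human cells is released from the ribosome to silence inflammatory transcripts, had 0.11 and 0.15 in these comparisons, Rpl3, a protein of the peptidyl transferase centre, 0.12 and 0.16, and Rpl10, an X-linked protein that joins the subunit late, 0.12 and 0.18.

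The stalk recruits elongation factors through Rplp0 and the acidic proteins Rplp1 and Rplp2. Rplp0 had 1204, 1264 and 1162 CPM in Ctnnb1 siRNA with dDAVP and 1072, 1061 and 1130 CPM in Ctnnb1 siRNA with vehicle, against 1011, 1116 and 1049 CPM in control siRNA with dDAVP and 1180, 1024 and 989 CPM in control siRNA with vehicle. Ctnnb1 siRNA with dDAVP lay above both of its comparison groups, at log2 values of 0.15 against vehicle and 0.19 against control siRNA (adjusted p = 0.295 and 0.258 by edgeR). Rplp1 and Rplp2, which work as a pair, had dDAVP values of opposite sign under control siRNA, 0.13 for Rplp1 and -0.21 for Rplp2, and neither passed the test by edgeR. On log2(TPM + 1), limma gave Rplp2 an adjusted p of 0.0120 in that comparison, with a log2 value of -0.26.

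Of the paralogs, Rpl22l1 was the highest on the TPM scale and lay above its partner there, at 515 TPM (range 463 to 577) against 232 TPM for Rpl22. By reads the order was the other way, with 114 to 142 CPM for Rpl22l1 and 241 to 293 CPM for Rpl22, and Rpl22 had 3.0 times the canonical median of reads per TPM, so the order of the pair rests on the transcript length used. The same holds among the paralogs: by reads Rpl7l1 averaged 136 CPM and Rpl22l1 129 CPM, and Rpl7l1 had 3.54 times the canonical median of reads per TPM. Rps27l, a p53 target in human cells, stood at 271 TPM (range 260 to 284) against 3053 TPM for Rps27, and Rpl7l1 at 103 TPM (range 92.9 to 110) against 2875 TPM for Rpl7. Under dDAVP, Ctnnb1 siRNA against control siRNA gave 0.16 for Rpl22l1 and 0.19 for Rpl22, 0.062 for Rps27l (-0.013 on log2(TPM + 1)) and 0.21 for Rps27, and -0.025 for Rpl7l1 and 0.15 for Rpl7, all on the log2 scale. The difference inside these pairs was not tested. The copies annotated as pseudogenes were low, at 114 TPM for Rps3a2, 40.7 TPM for Rpl6l, 35.4 TPM for Rps12l1 and 6.95 TPM for Rps3a3, and Rpl32l stood at 3.21 TPM. Rps12l1 had the largest fold change of any member at 1 CPM or more under dDAVP, a log2 value of 0.50 (SE 0.15, adjusted p = 0.198 by edgeR). It had 10.5, 11.6 and 8.57 CPM in Ctnnb1 siRNA with dDAVP against 5.98, 8.24 and 7.41 CPM in control siRNA with dDAVP.

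Much of the variation between libraries was common to the whole family. Inside groups, the first axis of variation carried 60.6% of the variance of the 78 canonical genes, and the median correlation between 2 of them was 0.81 over the 12 libraries (as deviations from group means; a description, since all points share the libraries and their scaling). The median within-group SD was 0.086 on the log2 scale over the members, against 0.072 over the 4980 tested genes of at least 50 CPM. With the median of the canonical genes taken out of each library, that of the canonical genes was 0.037.

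The median deviation of the members from their own 12-library means was 0.094, 0.18 and 0.035 on the log2 scale in Ctnnb1 siRNA with dDAVP, -0.035, -0.0037 and 0.036 in Ctnnb1 siRNA with vehicle, -0.14, 0.035 and -0.089 in control siRNA with dDAVP, and 0.059, -0.066 and -0.11 in control siRNA with vehicle. In Ctnnb1 siRNA with dDAVP, 82, 85 and 54 of the 86 members were above their own mean, and 2, 69 and 5 in control siRNA with dDAVP. The lowest library of Ctnnb1 siRNA with dDAVP, replicate 3 at 0.0349, and the highest of control siRNA with dDAVP, replicate 2 at 0.0347, almost touched. The SD between libraries of a group was 0.074 when pooled over groups, set against a median fold change of 0.16 between these groups.

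**Figure D5:**
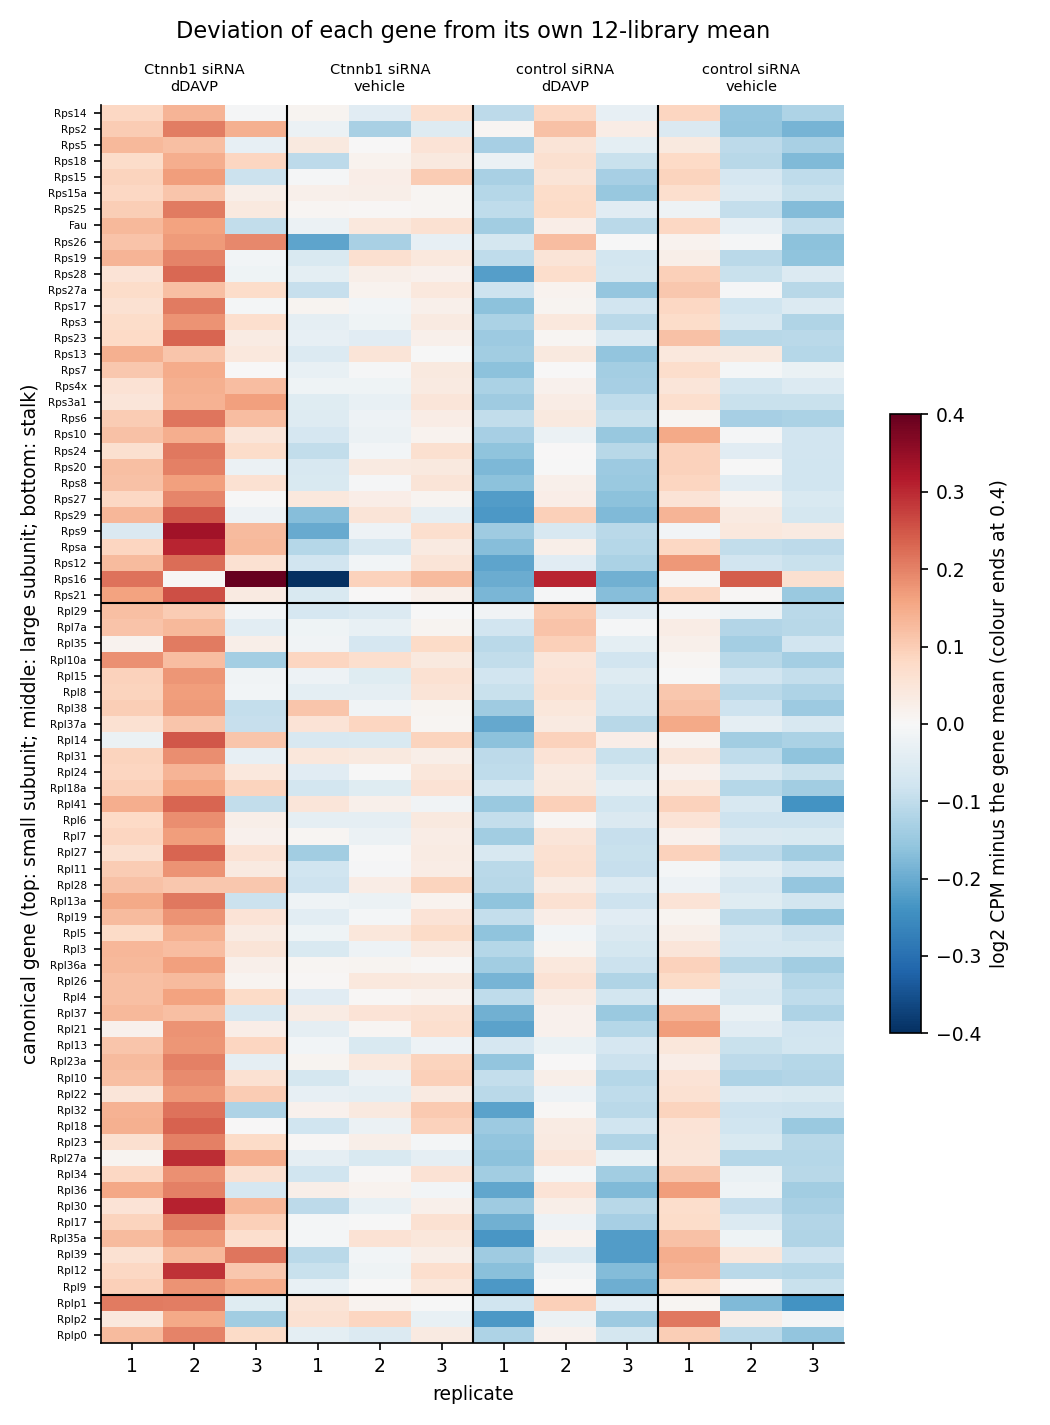
Log2 CPM of 77 canonical genes minus each gene's mean over 12 libraries, by library (columns, grouped, replicate number below) with small-subunit genes on top, large-subunit genes in the middle and stalk genes at the bottom. Whole columns share a colour, with Ctnnb1-siRNA dDAVP replicate 2 highest (median 0.18) and control-siRNA dDAVP replicate 1 lowest (median -0.14), and Rps16 departs from its columns.

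Fold changes were also set against transcript length over all genes. Over 13470 tested genes of at least 1 TPM, the Spearman correlation between the transcript length implied by the deposited values (reads per TPM) and the log2 fold change was -0.28 for Ctnnb1 siRNA against control siRNA under dDAVP, -0.16 for the interaction, -0.12 for Ctnnb1 siRNA with vehicle, -0.089 for dDAVP under Ctnnb1 siRNA and 0.072 for dDAVP under control siRNA. It is across genes, which are not independent replicates, and its sign was opposite to that of the members' median in all 5. Canonical members had a median of 16.3 reads per TPM, against 59.8 over 13384 other genes, so they lie at the short end of that relation. The part of transcript length in the members' fold changes was not tested.

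Genes that share the TOP tract or a role in translation were read from lists. Of 23 TOP genes that code for no ribosomal protein (such as Eef1a1, Eef2, Tpt1 and Npm1), 21 had positive fold changes for Ctnnb1 siRNA against control siRNA under dDAVP, with a median log2 value of 0.13, and 22 for dDAVP under Ctnnb1 siRNA, with a median of 0.12. None passed the test by edgeR in any comparison. The 78 mitochondrial ribosomal protein genes, which build the separate ribosomes of mitochondria, had 70 and 69 positive fold changes in these comparisons, with medians of 0.069 and 0.079, and none was called. Of 34 ribosome biogenesis factors, 23 and 28 were positive, with medians of 0.032 and 0.069 and none called. All tested genes had medians of 0.0011 and -0.0049 there.

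The share of all tested genes called higher with dDAVP was 1.91% under control siRNA and 2.08% under Ctnnb1 siRNA, and single calls within short lists are to be read against it. Of 24 cytosolic translation factors, 1 rose with dDAVP under control siRNA, Eif5a, the hypusine-carrying elongation factor (log2 fold change 0.24, SE 0.050, adjusted p = 0.0146 by edgeR), and none was called in the other comparisons. Of 22 genes of mTORC1, Larp1 and Myc control, Myc, the transcription factor that drives ribosome synthesis, rose with dDAVP under control siRNA (0.45, SE 0.084, adjusted p = 0.00674 by edgeR), and none was called elsewhere. Under Ctnnb1 siRNA against control siRNA with dDAVP, 6 of these 22 were positive, with a median of -0.073. Of 10 genes around p53, Sesn2, a stress-induced inhibitor of mTORC1, rose with dDAVP under both siRNAs, at log2 values of 0.45 under Ctnnb1 siRNA (adjusted p = 0.0151 by edgeR) and 0.47 under control siRNA (adjusted p = 0.0119 by edgeR).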

How the data were processed

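The deposited table holds, per the file headers, a read count and a TPM value for each of 25208 genes in 12 libraries made with rRNA depletion from total RNA by a stranded kit, per the labels' protocols. The counts deposited by the authors are unnormalised whole numbers, and the deposited TPM values divide reads by transcript length and library total. FastQC, Trimmomatic, HISAT2, StringTie and DESeq2 and the GRCm38 build are named in the submitters' processing notes, without version numbers. The use of strand in counting is not given in the sources used here.

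Counts were tested with edgeR 4.0.16 (quasi-likelihood, TMM scaling, filterByExpr, all 4 groups in 1 fit, Benjamini-Hochberg adjustment over 16508 genes, threshold 0.05) in R 4.3.3. Alternatives used DESeq2 1.42.0, other scalings and filters, a replicate block, limma 3.58.1 on log2(TPM + 1) and log2(TPM + 0.1), each library left out, and pseudogene reads added to their genes. The code was tested on simulated counts. Per-gene text covers members called in any comparison, the 3 highest and 3 lowest fold changes per comparison at 1 CPM or more, and members named for their role; Rpl10l, Rpl39l and Rps4l were not analysed here, and 1 member is not reported by name. Members and lists were chosen with earlier results of these data known.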

Additional observations from a re-analysis of the deposited data

How the results depend on the processing

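Counts of called members depended on the tool and scale. For dDAVP under control siRNA, where edgeR called 0, DESeq2 called 1 (Rps2; 3.34% of all genes it tested were called higher), log2(TPM + 1) and log2(TPM + 0.1) 7 each, TPM without small structural RNA 1, and added pseudogene reads 1; leaving out 1 library gave 0 to 1. For dDAVP under Ctnnb1 siRNA, where edgeR called 2, DESeq2 called 4 (3.8% of all genes it tested were called higher), and total reads as library size, a fit of only the 2 groups, TPM without small structural RNA and added pseudogene reads 1 each, and log2(TPM + 1) and log2(TPM + 0.1) 0 each; leaving out 1 library gave 0 to 2. For Ctnnb1 siRNA under dDAVP, DESeq2 called 16 against 0 (1.16% of all genes it tested were called higher). Leaving out 1 library gave 0 to 4 there, with 0.618% of all genes called higher in the fit that called 4. For dDAVP, the main edgeR fit called 1.91% of all tested genes higher under control siRNA and 2.08% under Ctnnb1 siRNA. On log2(TPM + 1), 1.4% were called lower under control siRNA. Counts of 1 or 2 of 86 members, at most 2.33%, are to be read against these shares. The members' median log2 fold change on log2(TPM + 1) and log2(TPM + 0.1) was -0.044 on both for Ctnnb1 siRNA with vehicle (0.031 by edgeR, 0.0066 to 0.087 with 1 library left out) and 0.084 on both for Ctnnb1 siRNA under dDAVP (0.16 by edgeR, 0.13 to 0.21 with 1 library left out). The members' mean share was 4.75% of reads but 12.5% of TPM, a scale that divides reads by transcript length. Canonical members had a median of 16.3 reads per TPM, against 59.8 over other tested genes of at least 1 TPM. The cause of the differences between tools and scales in calls and medians was not tested.

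Of the 86 members, 7 changed sign on log2(TPM + 1) for Ctnnb1 siRNA under dDAVP and 54 for Ctnnb1 siRNA with vehicle. The furthest was Rpl5 under dDAVP, at -0.051 against 0.16 by edgeR, through 1 low TPM value (1455 in Ctnnb1-siRNA dDAVP replicate 1). Among genes named by rule, Rpl6l under dDAVP was -0.014 with total reads, -0.073 and -0.075 on the TPM scales and -0.053 on TPM without small structural RNA. Rpl29 there was -0.031 on both TPM scales and -0.0097 on TPM without small structural RNA. With 1 library left out, the ranges were -0.055 to 0.088 for Rpl6l and -0.079 to 0.053 for Rpl7l1 under dDAVP (0.017 without control-siRNA dDAVP replicate 2), -0.070 to 0.028 for Rps3a3 and -0.065 to 0.037 for Rpl37a for dDAVP under Ctnnb1 siRNA, and -0.51 to 0.0069 for Rps16 with vehicle. In the interaction they were -0.18 to 0.00047 for Rpl6l, -0.14 to 0.030 for Rps3a3 and -0.10 to 0.053 for Rpl10a (0.0093 without control-siRNA dDAVP replicate 2). Replicate numbers are shared between groups, but none of 18 same-number correlations of deviations passed 0.1 (range -0.086 to 0.072). With 3 libraries a group, this cannot tell whether a number marks a shared culture or day. With the replicate block, 1 member was called for dDAVP under Ctnnb1 siRNA in place of 2 and 0 in the other comparisons. The fit without the block called 2.08% of all tested genes higher for dDAVP under Ctnnb1 siRNA. Precision was limited by 3 libraries a group, with a biological coefficient of variation of 8.26%.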
